A study of Mus musculus with 48 samples.

Results

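The 10 genes *Stab2*, *Lyve1*, *Clec4g*, *Fcgr2b*, *Oit3*, *Dnase1l3*, *Gpr182*, *Wnt2*, *Wnt9b* and *Rspo3*, of 46517 genes counted, are genes of the liver sinusoidal endothelium and were chosen by name. They were followed by bulk RNA-seq in explants, which are liver spheroids engrafted in the anterior chamber of the eye and taken out 2 months post-tx together with the iris around them (n = 5), and in naïve irises (n = 3), whole livers (n = 3), hepatocyte-enriched preparations (n = 3) and spheroids kept in vitro (n = 2). All 5 groups carry the same labels, genotype WT Albino and strain C57BL/6N. The labels name no transgene, drug or diet that differs between them. In the paper's methods, the media for plating liver cells and growing spheroids held dexamethasone and insulin. Neither is named for livers and irises, and the part of these media in the differences below was not tested. The mice of the study were adults of both sexes, at least 3 months old. The preparations came from a collagenase perfusion followed by a density gradient and low-speed spins that enrich hepatocytes, and the spheroids were grown from such preparations, so that any endothelial cell in a spheroid had passed through the preparation. Explants, preparations and spheroids are all labelled as hepatocytes, although an explant also holds iris tissue and cells of the recipient. The study's reporting summary speaks of biological replicates and gives the smallest RNA-seq sample size as n = 3 animals, although the spheroids here are n = 2. The labels do not say which sample came from which mouse. P-values measure the spread between these samples, which is in part technical wherever samples are not separate mice.

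Sinusoidal endothelial cells line the liver capillaries as a fenestrated layer without a continuous basement membrane and clear waste molecules from the blood by receptor-mediated endocytosis. *Stab2*, *Lyve1*, *Clec4g* and *Fcgr2b* encode endocytic or adhesive receptors of these cells, for hyaluronan and other ligands, for glycans and for immune complexes. The endothelium near the central vein also secretes Wnt2, Wnt9b and the R-spondin Rspo3, which act on neighbouring hepatocytes to keep the pericentral programme of genes such as *Glul*, *Cyp2e1* and *Axin2* switched on.

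All 10 genes lie on the minus strand of mm10, the build of the count table. *Stab2* (ENSMUSG00000035459) spans chr10:86841198-87008025, *Lyve1* (ENSMUSG00000030787) chr7:110850607-110862953, *Clec4g* (ENSMUSG00000074491) chr8:3707064-3720651 and *Fcgr2b* (ENSMUSG00000026656) chr1:170958617-170976547. *Oit3* (ENSMUSG00000009654) spans chr10:59422958-59441778, *Dnase1l3* (ENSMUSG00000025279) chr14:7964533-7994573 and *Gpr182* (ENSMUSG00000058396) chr10:127747276-127751732. *Wnt2* (ENSMUSG00000010797) spans chr6:17988940-18030585, *Wnt9b* (ENSMUSG00000018486) chr11:103727364-103749821 and *Rspo3* (ENSMUSG00000019880) chr10:29453109-29535867. Reads were counted over exons without strand and were given to every gene they overlapped. In GENCODE M21, *Gpr182* shares 60 of its exonic bases (1.52%) with *Zbtb39* on the other strand, which held 60 to 83 counts in irises. Any reads over those bases among the few *Gpr182* counts there cannot be told apart from *Zbtb39*. *Clec4g* shares 5.93%, *Fcgr2b* 2.68% and *Stab2* 1.61% of exonic bases with antisense genes. *Rspo3* shares bases of an exon with the antisense gene *Gm48159*, whose own counts were not analysed here, and *Fcgr2b* could in addition share reads with related Fc receptor genes. These counts are uncertain to that extent.

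Promoters are shown for 3 of the 5 genes that the promoter table holds. They are a receptor that fell with culture (*Stab2*), a receptor that was near 0 in some explants (*Clec4g*), and *Wnt2*. *Wnt2* is a Wnt ligand whose mean TPM was higher in explants than in the other groups, with overlap with irises. Each runs from 250 bases before to 50 bases after the start of the gene, read 5′ to 3′ on the gene's strand from RefSeq (GRCm38.p6), with every CG dinucleotide in capitals. *Stab2* is at chr10:87007893-87008192, *Clec4g* at chr8:3720602-3720901 and *Wnt2* at chr6:18030396-18030695, all on the minus strand.
Stab2: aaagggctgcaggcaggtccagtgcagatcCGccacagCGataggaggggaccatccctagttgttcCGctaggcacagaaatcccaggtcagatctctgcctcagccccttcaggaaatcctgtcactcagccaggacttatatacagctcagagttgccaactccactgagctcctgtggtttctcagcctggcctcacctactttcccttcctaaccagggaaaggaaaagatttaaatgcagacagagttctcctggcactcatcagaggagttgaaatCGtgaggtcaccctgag
Clec4g: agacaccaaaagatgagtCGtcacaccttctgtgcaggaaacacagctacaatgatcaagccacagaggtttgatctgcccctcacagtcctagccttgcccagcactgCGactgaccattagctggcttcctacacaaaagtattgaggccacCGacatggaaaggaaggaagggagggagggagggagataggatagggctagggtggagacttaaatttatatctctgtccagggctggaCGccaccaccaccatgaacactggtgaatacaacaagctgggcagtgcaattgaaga
Wnt2: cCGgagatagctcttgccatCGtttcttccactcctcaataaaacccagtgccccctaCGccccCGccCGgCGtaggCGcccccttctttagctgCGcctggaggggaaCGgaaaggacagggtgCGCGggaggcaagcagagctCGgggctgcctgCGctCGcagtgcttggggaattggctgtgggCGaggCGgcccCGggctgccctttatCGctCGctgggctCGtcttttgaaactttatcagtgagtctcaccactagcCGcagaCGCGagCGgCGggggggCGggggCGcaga
The count of CG dinucleotides differed among the 5 promoters. There were 4 in *Stab2*, 4 in *Clec4g* and 6 in *Fcgr2b*, 27 in *Wnt2* and 29 in *Wnt9b*, against a median of 7 over 32851 promoters of the same length. As many CG or more as in *Wnt2* were found in 15.5% of those promoters, and as many or fewer than in *Stab2* in 38%. The motif AGATAA, a core binding motif of the transcription factor family of *Gata4* that was searched on both strands, was found in 0 of the 5 member promoters matched in the table and in 11.2% of all promoters. Only this form of the motif was searched, so the 0 does not mean that sites of this family are absent. With 5 promoters, 0 cannot be told apart from a share of 11.2%. The other 5 genes are *Lyve1*, *Oit3*, *Dnase1l3*, *Gpr182* and *Rspo3*.

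The total count per sample was 2718518 to 3573075 in preparations, 3247327 to 3447643 in spheroids, 3523171 to 3871404 in livers, 4596550 to 4881817 in irises and 5449589 to 6789648 in explants. Levels are given as TPM, which scales transcripts to the same total in every sample and corrects for gene length. The iris share of the explants, as solved from the authors' corrected table, was 82%, 68%, 81%, 72% and 59% in explants 1, 2, 4, 5 and 6. After subtraction of that share of the mean iris, what was left of each explant, and its error, was multiplied by a factor of 2.44 to 5.56. The summed TPM of 10 hepatocyte genes was 11369 to 12357 in livers, 11953 to 14158 in preparations, 11151 to 12299 in spheroids, 4754 to 6576 in explants before subtraction and 1402 to 1664 in irises. *Alb*, the albumin gene, was at 753 to 861 TPM in irises against 3097 to 3310 TPM in livers, so hepatocyte transcripts were plain in the iris libraries too. The part of carry-over between libraries in this, in the low levels of liver genes in irises and explants, and in the subtraction was not tested. In bulk RNA, fewer endothelial cells and less RNA per endothelial cell cannot be told apart. RNA of the 10 genes from other cell types cannot be told apart from that of endothelial cells either. Both limits hold for every level below.

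Livers were compared with irises to see which of the 10 genes could tell liver from the tissue around the graft. All but *Wnt2* and *Wnt9b* were higher in livers, by 1.81 to 8.37 on the log2 scale.
*Clec4g*, a C-type lectin receptor, was at 97.9, 148 and 175 TPM in livers and at 0.487, 1.30 and 0.493 TPM in irises. *Stab2*, the hyaluronan scavenger receptor, was at 9.94, 15.6 and 13.8 TPM in livers and at 0.822, 0.953 and 0.623 TPM in irises. The livers lay above the irises without overlap for both genes, with log2 differences of 8.37 (SE 0.39, adjusted p = 1.69e-07) and 4.92 (SE 0.29, adjusted p = 6.25e-07). *Dnase1l3*, a secreted DNase, was at 55.6, 93.8 and 103 TPM in livers against 0.349, 0.997 and 0.824 TPM in irises (log2 difference 7.74, SE 0.39). *Oit3*, a secreted protein of sinusoidal endothelium, was at 26.7, 30.8 and 36.9 TPM against 0.861, 0 and 0.435 TPM (log2 difference 6.94, SE 0.44). These 4 genes were near 0 in the iris libraries, where each had 34 counts or fewer in all 3 irises together.

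*Fcgr2b*, the inhibitory Fc gamma receptor that sinusoidal endothelium uses to take up immune complexes, was plain in both tissues. It was at 30.9, 32.3 and 52.0 TPM in livers and at 19.9, 23.6 and 17.7 TPM in irises, and its log2 difference was the smallest of those called (1.81, SE 0.22, adjusted p = 8.72e-05). *Lyve1*, a hyaluronan receptor also used by lymphatic endothelium and some macrophages, was at 57.2, 19.4 and 18 TPM in livers and at 2.07, 1.23 and 3.49 TPM in irises (log2 difference 4.63, SE 0.54). Liver 1 alone stood high for *Lyve1*. It was also the lowest of the 3 livers for *Stab2*, *Clec4g*, *Oit3*, *Dnase1l3* and *Wnt2* and the highest for *Rspo3*, the summed macrophage genes (1197 against 554 and 667 TPM) and stellate cell genes (439 against 266 and 275 TPM). For the summed Kupffer cell genes it was the lowest (212 against 307 and 415 TPM). The part of these traits of liver 1 in the liver results was not tested. *Gpr182*, an atypical chemokine receptor, was at 26.6, 23.7 and 32.9 TPM in livers against 1.37, 1.95 and 1.23 TPM in irises (log2 difference 5.07, SE 0.25).

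The secreted Wnt signals did not behave alike. *Rspo3* was at 18, 12.6 and 9.36 TPM in livers and at 2.51, 2.14 and 2.79 TPM in irises, a log2 difference of 3.28 (SE 0.33, adjusted p = 2.27e-05). *Wnt2* was at 3.40, 4.99 and 11.7 TPM in livers and at 11.7, 9.11 and 9.15 TPM in irises, so the ranges overlapped. Its log2 difference of 0.33 (SE 0.44, adjusted p = 0.523) was not called, and turned to -0.36 when libraries were scaled by their size alone and to -0.34 without liver 3. *Wnt9b* was barely detected, with 4, 3 and 2 counts in the livers and 1 count in all irises together, and fell below the filter on low counts. In all, 8 of the 9 genes tested were called higher, where 22.1% of the 15459 genes tested were called higher and 29.8% lower. With library size alone these shares were 12.8% and 44%, and the median log2 difference of all genes moved from -0.11 to -0.80. The same 8 calls held without any single sample.

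**Figure D1:**
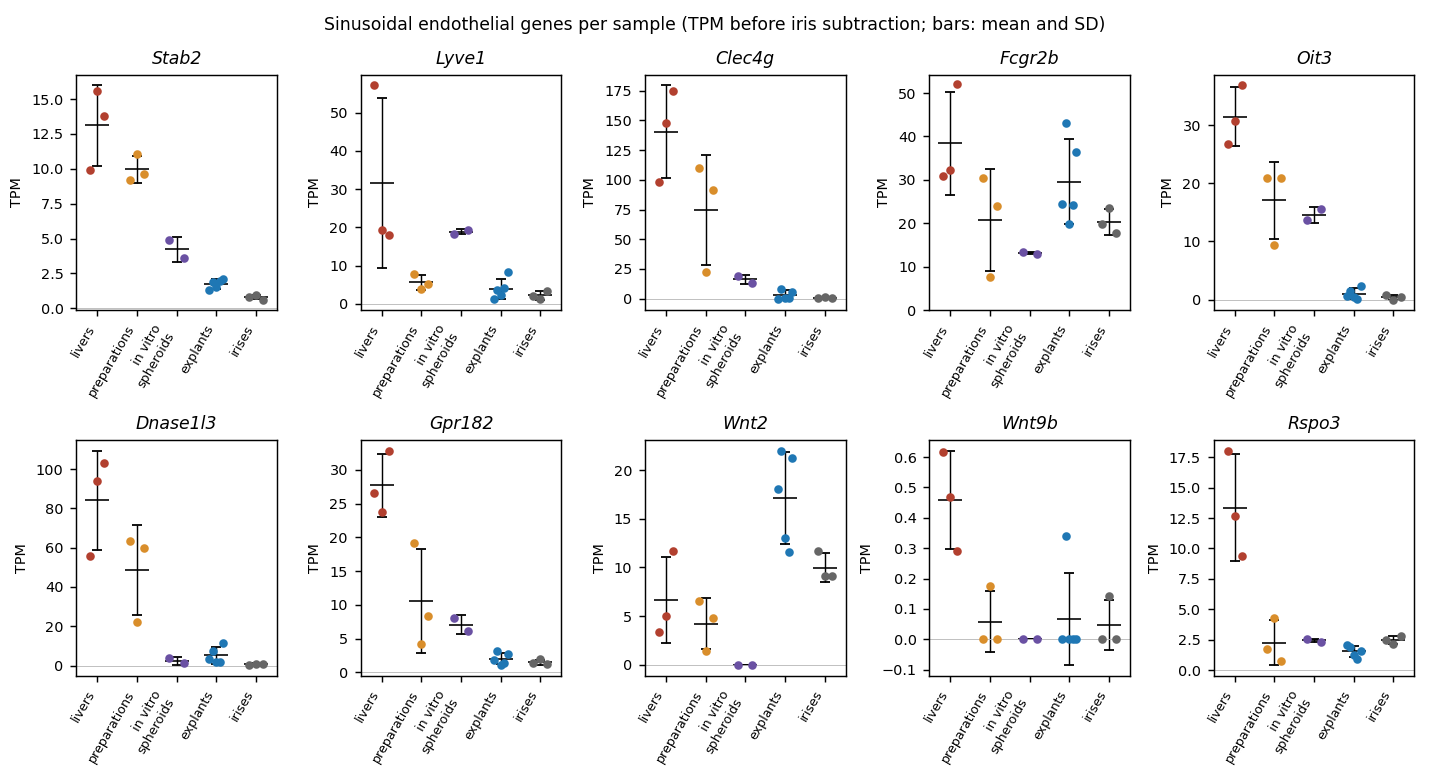
Each panel plots the TPM of a gene (vertical axis, linear, before iris subtraction) in the 3 livers, 3 preparations, 2 in vitro spheroid samples, 5 explants and 3 irises, with a point per sample, a line at the mean and bars of 1 SD. For *Clec4g* the levels step down from livers (97.9 to 175 TPM) to irises (0.487 to 1.30 TPM), whereas for *Wnt2* the explants (11.6 to 22 TPM) stand highest and both spheroid samples are at 0.

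Explants were compared with irises to ask whether sinusoidal endothelial transcripts were present in the graft beyond those of the surrounding iris. *Stab2* and *Dnase1l3* were higher in the explants, and *Clec4g* and *Oit3* were raised in some explants only. *Stab2* was at 1.31, 1.87, 1.5, 1.96 and 2.13 TPM in explants 1, 2, 4, 5 and 6. All 5 lay above the highest iris (0.953 TPM), with a log2 difference of 1.24 (SE 0.30, adjusted p = 0.0266). *Dnase1l3* was at 3.28, 7.45, 1.71, 1.83 and 11.7 TPM, all above the highest iris at 0.997 TPM (log2 difference 2.97, SE 0.84, adjusted p = 0.0497). Of the 6 genes tested, 2 were called higher, where 6.16% of 16764 genes were called higher and 0.316% lower. Both calls depended on single samples. Without explant 2, and whichever iris was left out, neither gene passed (adjusted p up to 0.116 for *Stab2* and 0.174 for *Dnase1l3*), *Stab2* also failed without explant 5, and limma-voom called neither.

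*Clec4g* and *Oit3* had too few counts to be tested here. *Clec4g* was at 0, 8.52, 0.595, 0.522 and 5.83 TPM, and *Oit3* at 0.586, 1.47, 0.525, 0.154 and 2.40 TPM, so that explants 2 and 6 stood above the irises and the other 3 within or below their range. The same explants were highest for *Gpr182*, at 3.11 and 2.66 TPM against 1.11 to 1.79 TPM in the others, and for *Dnase1l3*. They had the lowest iris shares, 68% and 59%, and the highest levels of the macrophage receptor *Adgre1*, at 118 and 153 TPM against 42 to 62.7 TPM in the other explants and 17.6 to 22.4 TPM in irises. They were also highest for *Vsig4*, a Kupffer cell gene, at 22.8 and 39.6 TPM against 0.986 to 2.31 TPM. The part of iris share and of macrophages in these levels was not tested.

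*Lyve1* was at 1.25, 3.53, 2.25, 4.27 and 8.25 TPM in the explants and overlapped the irises (log2 difference 0.92, SE 0.63, adjusted p = 0.382). *Fcgr2b* was at 24.5, 43.1, 19.8, 24.3 and 36.3 TPM, again overlapping (log2 difference 0.65, SE 0.28, adjusted p = 0.171). *Wnt2* was at 18.1, 22, 13, 11.6 and 21.2 TPM, with explant 5 inside the iris range and the others above it. Its log2 difference of 0.89 (SE 0.28, adjusted p = 0.0737) was not called, and rose past both limits (1.01) without explant 5. *Rspo3* went the other way. It was at 2.05, 1.92, 1.22, 0.895 and 1.6 TPM, each below the lowest iris (2.14 TPM), on 37 counts in all 5 explants, and did not pass the filter on low counts. *Wnt9b* had 3 counts in explant 2 and 0 in the other explants.

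Other endothelial genes set the scale for these small differences. Of 20 general vascular endothelial genes tested, edgeR called 0 (6 higher and 0 lower at an unadjusted p under 0.05, and 0 by DESeq2 and by limma-voom). Of 12 other sinusoidal endothelial genes tested, edgeR again called 0 (3 higher and 1 lower at an unadjusted p under 0.05, 1 higher by DESeq2 and 0 by limma-voom). *Pecam1* and *Cdh5*, adhesion molecules of all endothelium, differed by 0.75 (SE 0.20, adjusted p = 0.0380) and 0.69 (SE 0.19, adjusted p = 0.0411), under the fold limit of 1. Among 10 macrophage genes 5 were called higher, led by *Adgre1* (2.22, SE 0.52, adjusted p = 0.0248), a call that was lost without explant 2 or any single iris (adjusted p up to 0.108). All 10 hepatocyte genes were called higher, from a median difference of 3.25, against a median of 0.01 over all genes tested.

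Preparations were compared with livers to see how much RNA of the 10 genes was found after the hepatocyte enrichment. All 9 genes tested had a lower estimate in preparations, but the losses were uneven, with *Lyve1* and *Rspo3* at 17.9% and 17% of the liver mean and *Stab2* at 76.1%. *Stab2* was at 9.19, 11.1 and 9.65 TPM in the preparations and overlapped the livers (log2 difference -0.26, SE 0.20, adjusted p = 0.455). *Lyve1* was at 7.79, 3.96 and 5.17 TPM, below every liver (log2 difference -2.31, SE 0.50, adjusted p = 0.0470). *Rspo3* was at 1.75, 4.31 and 0.751 TPM, also below every liver (log2 difference -2.38, SE 0.52, adjusted p = 0.0471). These 2 of 9 genes were called lower, where 2.31% of 12236 genes were called lower and 0.409% higher. Both calls were lost whichever of the 6 samples was left out, *Lyve1* reaching an adjusted p of 0.160 and *Rspo3* of 0.154.

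Preparation 2 stood apart for most of the other genes. *Clec4g* was at 109.8, 22.6 and 91.3 TPM in preparations 1, 2 and 3, and *Dnase1l3* at 63.3, 22.1 and 59.9 TPM. *Oit3* was at 20.8, 9.41 and 21 TPM, *Fcgr2b* at 30.5, 7.69 and 23.9 TPM, *Gpr182* at 19.1, 4.22 and 8.41 TPM, and *Wnt2* at 6.52, 1.41 and 4.79 TPM. Preparation 2 was the lowest for each of these 6 genes and for *Lyve1*, but the highest of the 3 for *Stab2* and *Rspo3*. It was also highest in the pericentral genes *Glul*, at 947 TPM against 231 and 141 TPM, and *Slc1a2*, at 138 TPM against 20.9 and 16.8 TPM, and lowest in the summed general vascular endothelial genes, at 74.4 TPM against 153 and 125 TPM. The log2 differences of *Clec4g*, *Fcgr2b*, *Oit3*, *Dnase1l3* and *Wnt2* lay between -0.78 and -0.52 and were not called, and that of *Wnt2* turned to 0.16 without liver 3. *Gpr182* differed by -1.24 (SE 0.43, adjusted p = 0.128) and was called lower by DESeq2 and in the fit without preparation 1 (adjusted p = 0.0279). *Wnt9b* had 1 count in the 3 preparations together.

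Some general endothelial genes were lower too. Of 19 general vascular endothelial genes 5 were called lower (0 by limma-voom), among them *Vwf*, the clotting carrier protein (-3.30, SE 0.49, adjusted p = 0.0289), and *Erg*, an endothelial transcription factor (-2.43, SE 0.50, adjusted p = 0.0426). Of 14 other sinusoidal endothelial genes 2 were called lower, *Bmp2* (-2.62, SE 0.35, adjusted p = 0.0195) and *Maf* (-1.66, SE 0.28, adjusted p = 0.0338). *Bmp2* encodes the ligand by which endothelium drives hepcidin in hepatocytes. All 4 lost their calls in some fits with a sample left out (adjusted p up to 0.148). Stellate cell genes were called lower in 5 of 8 and macrophage genes in 3 of 10, against 1 and 0 by limma-voom. Of 14 called genes of all lists but the members followed over the fits with a sample left out, 0 kept the call in each of them (adjusted p up to 0.158). For the 6 Kupffer cell genes edgeR called 0 (0 higher and 2 lower at an unadjusted p under 0.05, 0 by DESeq2 and by limma-voom), and *Clec4f* was at 63.2, 37.9 and 44.8 TPM.

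Spheroids were compared with the preparations they are made from to see what culture left of the endothelial genes. *Dnase1l3*, *Clec4g*, *Stab2* and *Wnt2* fell, *Lyve1* rose, and *Oit3* and *Gpr182* stayed within the range of the preparations. *Dnase1l3* was at 3.84 and 1.09 TPM in the spheroids, far below every preparation (log2 difference -4.63, SE 0.62, adjusted p = 0.00212). *Stab2* was at 4.86 and 3.58 TPM (log2 difference -1.58, SE 0.23, adjusted p = 0.00281). Both genes kept their calls without any single sample. *Clec4g* was at 19.1 and 13.4 TPM, below every preparation (log2 difference -2.54, SE 0.62, adjusted p = 0.0220), a call lost without preparation 3 or either spheroid sample (adjusted p up to 0.117). *Wnt2* had 0 counts in both spheroid samples, which allows up to 0.897 CPM (counts scaled to the library total), against a mean of 3.85 CPM in preparations, so that it was at least 4.30-fold lower by a floor of 3 counts per sample. Its adjusted p was 0.0167, and the call was lost without spheroid sample 1 or 2 (adjusted p up to 0.0767). Without preparation 1 or 3 it did not pass the filter on low counts and was not tested.

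*Lyve1* was at 18.4 and 19.4 TPM in the spheroids, above every preparation and at the level of livers 2 and 3. It rose by 1.41 on the log2 scale (SE 0.35, adjusted p = 0.0243), a call that remained without preparation 1 and was lost without any other single sample (adjusted p up to 0.107). *Oit3* was at 13.6 and 15.6 TPM and *Gpr182* at 8.08 and 6.11 TPM, both inside the range of the preparations (log2 differences -0.55, SE 0.39, and -0.92, SE 0.57). *Fcgr2b*, at 13.4 and 13.1 TPM, was also inside that range (-0.98, SE 0.49, adjusted p = 0.182), and was called lower without preparation 2 (-1.35, adjusted p = 0.00630). *Rspo3*, at 2.54 and 2.35 TPM, and *Wnt9b*, with 0 counts, did not pass the filter on low counts. In all, 1 of 8 genes tested was called higher and 4 lower, where 8.13% of 12247 genes were called higher and 9.11% lower. With library size alone these shares were 12.5% and 6.60%, and the median of all genes moved from 0.01 to 0.27. The spheroids' 2 samples are the smallest group here.

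Not all endothelial genes fell together in the spheroids. Among 16 general vascular endothelial genes 2 were called higher and 2 lower. *Cd34*, at 7.09 and 7.07 TPM against 0.0960 to 0.763 TPM in preparations, rose by 3.92 (SE 0.57, adjusted p = 0.00307), and *Emcn*, a sialomucin of venous and capillary endothelium, rose by 2.56 (SE 0.51, adjusted p = 0.0107). *Ptprb*, the vascular endothelial phosphatase, fell by 3.73 (SE 0.46, adjusted p = 0.00157), and *Tek*, the angiopoietin receptor, fell by 2.46 (SE 0.63, adjusted p = 0.0256). *Cd34* and *Ptprb* kept their calls without any single sample. Among the other sinusoidal endothelial genes 2 of 13 were called lower, *Ehd3* (-2.08, SE 0.49, adjusted p = 0.0190) and the VEGF receptor gene *Kdr* (-1.91, SE 0.52, adjusted p = 0.0317), both lost in some fits with a sample left out (adjusted p up to 0.150). Kupffer cell genes were called higher in 2 of 6, *Vsig4* (1.87, SE 0.29) and *Cd5l* (1.67, SE 0.23), and macrophage genes in 4 of 10. The summed Kupffer cell genes were at 491 and 539 TPM in spheroids and at 115 to 220 TPM in preparations, and their part in the level of *Lyve1* and *Fcgr2b* was not tested.

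**Figure D2:**
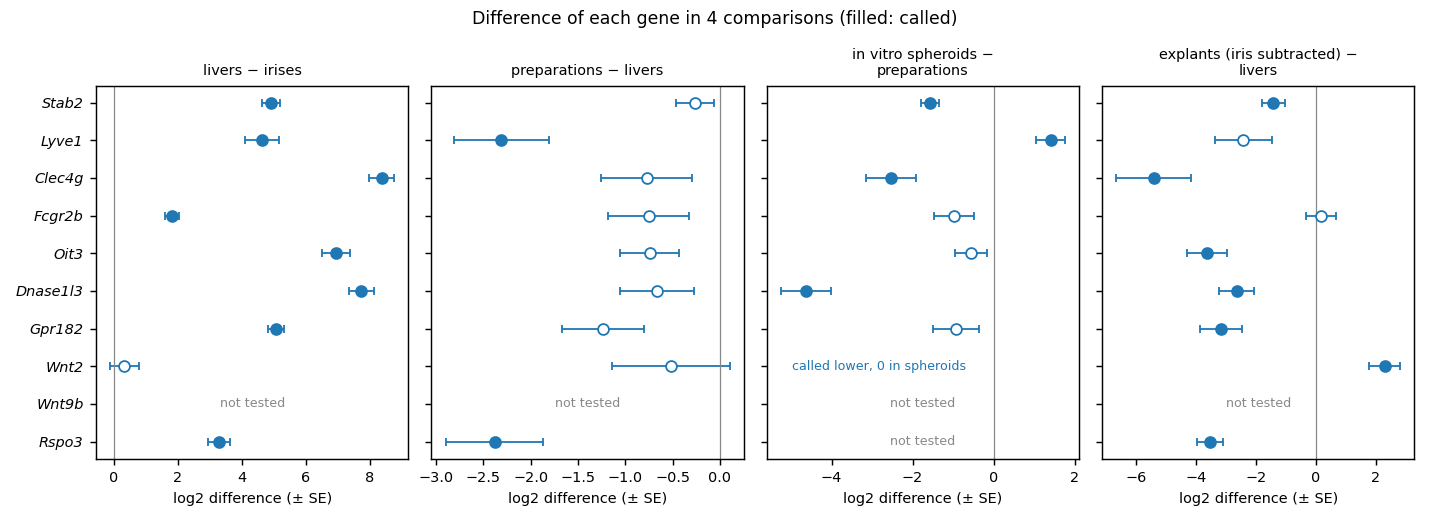
Each panel plots, for the 10 genes, the log2 difference between a pair of groups with bars of 1 SE, filled where called. In livers against irises 8 genes are called higher (3.28 for *Rspo3* to 8.37 for *Clec4g*, and 1.81 for *Fcgr2b*), and in explants after iris subtraction against livers 6 are called lower and *Wnt2* is called higher (2.30).

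Explants after iris subtraction were compared with livers, to set the graft itself beside the native organ. The subtraction adds its own error, and all 5 explants share the same iris mean. Most receptor genes were lower than in livers, *Rspo3* was near 0, and *Wnt2* was higher. *Stab2* was at 3.61, 4.14, 4.51, 4.93 and 4.04 TPM, 32.4% of the liver mean with little spread (SD 0.499 TPM, n = 5). It was called lower by 1.41 (SE 0.39, adjusted p = 0.0467) on the log2(TPM + 1) scale, and lost the call without explant 1, 2 or 5, and whichever liver was left out (adjusted p up to 0.222). It was also lost with no filter on low values, with the corrected values as deposited and with the iris share solved by least squares. *Clec4g* was at 0, 25, 0, 0 and 13.1 TPM, every explant below every liver (log2 difference -5.40, SE 1.25, adjusted p = 0.0243). Its values at 0 were -3.47, -0.116 and -0.0936 TPM in explants 1, 4 and 5 before negative values were set to 0. *Oit3* was at 1.29, 3.67, 0.922, 0 and 5.23 TPM (log2 difference -3.61, SE 0.67, adjusted p = 0.0108), lost without liver 2 or 3 (adjusted p up to 0.0652). *Dnase1l3* was at 14.9, 21.7, 5.89, 4.67 and 27.5 TPM, 17.7% of the liver mean (log2 difference -2.64, SE 0.60, adjusted p = 0.0221). *Gpr182* was at 3.05, 6.49, 0, 1.14 and 4.31 TPM (log2 difference -3.15, SE 0.70, adjusted p = 0.0216). *Clec4g*, *Dnase1l3* and *Gpr182* each lost the call whichever liver was left out (adjusted p up to 0.112), and *Clec4g* and *Gpr182* also with a pseudocount of 0.1.

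The remaining receptors did not pass. *Lyve1* was at 0, 6.23, 2.17, 9.43 and 16.9 TPM, every explant below every liver (log2 difference -2.41, SE 0.95, adjusted p = 0.134). *Fcgr2b* was at 43.4, 91.4, 17.2, 34.2 and 59.3 TPM, on both sides of the livers (log2 difference 0.19, SE 0.50, adjusted p = 0.822). Its sign turned without explant 2 (-0.08) and with TPM before subtraction (-0.38). It was highest in explants 2 and 6, which were also the highest in *Adgre1*. *Fcgr2b* is also used by macrophages, and the summed macrophage genes after subtraction were at 2358 to 6337 TPM in explants and at 554 to 1197 TPM in livers. Their part in this level was not tested.

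Among the secreted signals, *Rspo3* after subtraction was at 0.0732, 0.741, 0, 0 and 0.329 TPM, 1.71% of the liver mean, and every explant lay below every liver. It was lower by 3.54 on the log2 scale (SE 0.44, adjusted p = 0.00268), a call that held without any single sample. The mean of the irises (2.48 TPM) was above every explant before subtraction, the highest of which was at 2.05 TPM. Explants 4 and 5 were at -4.13 and -3.18 TPM before negative values were set to 0, so the 1.71% depends on that step. *Wnt2* was at 55.1, 47.5, 25.8, 15.7 and 37.3 TPM, above every liver (log2 difference 2.30, SE 0.52, adjusted p = 0.0223). That call was lost without liver 1 or liver 2 (adjusted p up to 0.0971) and with the corrected values as deposited. *Wnt9b* was at 0.961 TPM in explant 2 and at 0 in the others, and was not tested. In all, 6 of 9 genes were called lower and 1 higher, where 3.05% of 22778 genes were called lower and 10.8% higher. The median log2 difference was -2.64 over the 9 genes and 0.44 over all genes tested.

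**Figure D3:**
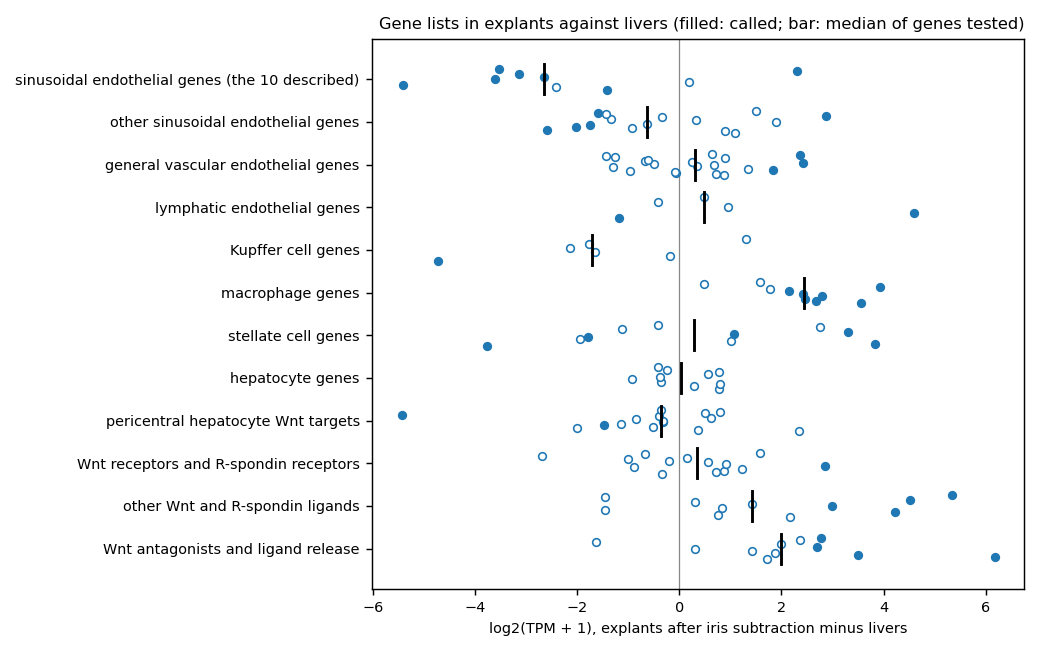
Each point is a gene tested, at its log2(TPM + 1) difference between the 5 explants after iris subtraction and the 3 livers (horizontal axis), filled where called, with a bar at the median of the list. The 9 sinusoidal endothelial genes tested have the lowest median (-2.64) of the lists plotted and the macrophage genes the highest (2.44).

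Other endothelial genes were set beside the members in the same comparison. Of 20 general vascular endothelial genes 3 were called higher and 0 lower, where 10.8% of all genes tested were called higher and 3.05% lower. Their median was 0.30 beside 0.44 over all genes tested. Those higher were *Cldn5*, a tight junction protein (2.41, SE 0.32, adjusted p = 0.00327), *Cd34* (2.36, SE 0.54, adjusted p = 0.0234) and *Emcn* (1.83, SE 0.40, adjusted p = 0.0202). All 3 were plain in the iris that was subtracted. Before subtraction *Cldn5* was at 113 to 151 TPM in explants and at 100 to 127 TPM in irises. *Cd34* was at 14.3 to 17.2 TPM against 12.7 to 16.6 TPM, and *Emcn* at 24.1 to 30.6 TPM against 25.2 to 29.5 TPM. *Pecam1* and *Cdh5* overlapped the livers, with differences of 0.88 (SE 0.44) and 0.71 (SE 0.50). Of 15 other sinusoidal endothelial genes 4 were called lower, among them *Clec1b*, a platelet and endothelial lectin (-2.59, SE 0.61, adjusted p = 0.0260), *Ehd3*, an endocytic trafficking protein (-2.02, SE 0.32, adjusted p = 0.00661), and *Gata4*, the transcription factor of sinusoidal endothelium (-1.76, SE 0.42, adjusted p = 0.0267). *Sema6a* was called higher (2.87, SE 0.80, adjusted p = 0.0469). *Cldn5* and *Ehd3* kept their calls without any single sample and the other 5 did not (adjusted p up to 0.172). Of 5 lymphatic endothelial genes 1 was called higher and 1 lower. *Prox1*, a lymphatic transcription factor that hepatocytes also express, was lower by 1.19 (SE 0.28, adjusted p = 0.0251). The lymphatic gene *Pdpn*, which the iris held at a mean of 574 TPM, was higher by 4.59 (SE 0.48, adjusted p = 0.00145). Of 6 Kupffer cell genes 1 was called lower and 0 higher, *Clec4f*, by 4.73 (SE 0.96, adjusted p = 0.0152, lost in some fits with a sample left out, adjusted p up to 0.0875). *Folr2* was at 40.6, 213, 13.6, 29 and 194 TPM in explants against 7.75 to 44 TPM in livers, and *Vsig4* at 70.2 and 96.1 TPM in explants 2 and 6 and at 3.42 to 7.18 TPM in the others against 44.1 to 73.3 TPM. Of 10 macrophage genes 7 were called higher, with *Adgre1* at 3.56 (SE 0.49, adjusted p = 0.00388). Hepatocyte genes had a median of 0.02 and limma called 0 of 10 (4 higher and 2 lower at an unadjusted p under 0.05).

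Explants after subtraction were last set beside the in vitro spheroids, which were not transplanted. The sample titles give no day of culture for the spheroids and do not tie them to the explants. *Wnt2* was higher and *Rspo3* lower, and the receptors did not pass. *Wnt2* was at 0 in both spheroid samples and at 15.7 to 55.1 TPM in the explants (adjusted p = 0.00560), and the call held without any single sample. It was at 11.6 to 22 TPM even before subtraction, while irises stood at 9.11 to 11.7 TPM. *Rspo3* was lower by 1.52 (SE 0.32, adjusted p = 0.0430), a call that remained without explant 2 and was lost without any other single sample (adjusted p up to 0.142). These were 1 gene called higher and 1 lower of 9, where 4.14% of 22789 genes were called higher and 1.35% lower.

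*Stab2* was at the same mean in both groups, 4.25 TPM in explants and 4.22 TPM in spheroids (log2 difference 0.01, SE 0.55). *Dnase1l3* was above both spheroid samples in all 5 explants (log2 difference 2.05, SE 0.85, adjusted p = 0.262), and *Fcgr2b* likewise (1.62, SE 0.61, adjusted p = 0.216). *Oit3* was below both spheroid samples in all 5 explants (-2.56, SE 0.86, adjusted p = 0.165), as was *Lyve1* (-1.90, SE 1.15, adjusted p = 0.437). *Clec4g* (-2.39, SE 1.6) and *Gpr182* (-1.32, SE 0.91) overlapped. None of these 7 differences was called. General vascular endothelial genes were called higher in 2 of 20, *Cldn5* (3.06, SE 0.39, adjusted p = 0.00809) and *Eng*, a TGF-beta co-receptor (1.89, SE 0.32, adjusted p = 0.0211). The subtracted irises held *Cldn5* at 100 to 127 TPM and *Eng* at 47.3 to 52.5 TPM. Of 13 other sinusoidal endothelial genes limma called 0 (5 higher and 1 lower at an unadjusted p under 0.05).

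The genes that receive, carry or oppose the endothelial Wnt signals were followed over the same groups. The ligands of the iris set much of the picture. Of 11 other Wnt and R-spondin ligands tested, 8 were called lower in livers than in irises and 2 higher, and of 8 antagonists and release factors 7 were lower. Over all genes tested, 29.8% were called lower in livers and 22.1% higher. *Rspo2*, a relative of *Rspo3*, was at 74.4 to 75.9 TPM in irises and at 0 to 1.19 TPM in livers, and *Wnt16* at 73.5 to 78.0 TPM against 0.484 to 1.6 TPM. *Wnt11* had 0 counts in livers and was at least 5.17-fold lower there. After iris subtraction *Rspo2* was at 22.4 to 149 TPM in the explants (log2 difference to livers 5.33, SE 0.66, adjusted p = 0.00270), and *Wnt5a*, a ligand of the non-canonical pathway, at 27.6 to 58.1 TPM (4.22, SE 0.44, adjusted p = 0.00147). Before subtraction *Wnt5a* was at 28.9 to 35.2 TPM in explants and overlapped the irises (25.5 to 34.1 TPM). The part of iris RNA left after subtraction in these levels was not tested. In explants after subtraction against livers, 4 of 11 ligands, 4 of 11 antagonists and release factors and 1 of 14 receptors, *Fzd6*, were called higher. Over all genes tested there, 10.8% were called higher, so 1 receptor of 14 does not set the receptors apart.

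Fewer of these genes were measurable in the liver-derived cultures. In spheroids against preparations, 3 of 10 receptors were called lower, the Frizzled genes *Fzd8* (-2.01, SE 0.54, adjusted p = 0.0297) and *Fzd7* (-1.46, SE 0.42, adjusted p = 0.0376) and the co-receptor gene *Lrp5* (-1.36, SE 0.32, adjusted p = 0.0187). The share called lower over all genes tested was 9.11%. *Wnt4* was at 32.1 and 5.18 TPM in the spheroids and at 0, 0 and 0.214 TPM in the preparations. *Notum*, a secreted enzyme that inactivates Wnt proteins and is itself a Wnt target, fell by 6.06 (SE 0.49, adjusted p = 0.000316), from 22.4 to 36 TPM to 0.631 and 0.334 TPM. *Wnt4* and *Notum* kept their calls without any single sample, and the receptors did not (adjusted p up to 0.161).

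The hepatocyte targets of the pericentral Wnt signals were lower in the spheroids. Of 13 targets tested 11 were called lower than in preparations, where 9.11% of all genes tested were called lower. Their median difference was -4.49 against 0.01 for all genes tested, and their summed TPM was 725 and 1021 in spheroids against 6248 to 10846 in preparations. *Cyp2e1*, a pericentral cytochrome P450, was at 152 and 137 TPM in the spheroids and at 2449 to 3332 TPM in the preparations (log2 difference -4.71, SE 0.30, adjusted p = 0.000123). *Rgn*, regucalcin, was at 36 and 42.1 TPM against 1539.7 to 2124 TPM (-5.86, SE 0.32, adjusted p = 6.49e-05). *Axin2*, a feedback inhibitor and direct Wnt target, was at 0.690 and 0.731 TPM against 2.78 to 4.47 TPM (-2.55, SE 0.48, adjusted p = 0.00817), lost without spheroid sample 1 (adjusted p = 0.0537). *Lgr5*, the R-spondin receptor, had 1 count in the spheroids and was at 1.36, 9.29 and 2.19 TPM in the preparations. *Glul*, glutamine synthetase, was at 81.9 and 137 TPM against 231, 947 and 141 TPM (-2.29, SE 0.79, adjusted p = 0.0672) and was not called. It was called lower with no filter on low counts, in a single fit of all groups, with the replicate number as a block and without preparation 3.

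The same targets were compared between explants after subtraction and livers. Among 15 tested, 2 were called lower than in livers, *Slc1a2*, a glutamate transporter, at 0 in 4 explants and 0.291 TPM in explant 5 against 27.3 to 56.4 TPM (log2 difference -5.43, SE 0.47, adjusted p = 0.000972), and *Cyp1a2* (-1.47, SE 0.37, adjusted p = 0.0337). Against spheroids 4 of 15 were called higher, *Lect2* (4.58, SE 0.38, adjusted p = 0.00309), *Rgn* (4.56, SE 0.31, adjusted p = 0.00171), *Cyp2e1* (3.59, SE 0.52, adjusted p = 0.0124) and *Oat* (3.04, SE 0.66, adjusted p = 0.0463). The shares over all genes tested were 3.05% called lower against livers and 4.14% called higher against spheroids. *Slc1a2*, *Lect2* and *Rgn* kept their calls without any single sample, and *Cyp1a2*, *Cyp2e1* and *Oat* did not (adjusted p up to 0.315). The canonical targets were abundant in the iris that was subtracted. *Axin2* was at 46.7 to 48.5 TPM and *Lgr5* at 11.4 to 12.9 TPM in irises, above every liver (2.51 to 6.52 and 2.12 to 2.74 TPM), and *Glul* was at 732 to 776 TPM against 205 to 520 TPM. For *Glul* this gap was one of TPM. Tested on counts, its log2 difference of livers to irises was 0.0117 with DESeq2 and 0.0113 with RLE size factors. After subtraction *Glul* was at 189, 339, 86.5, 20.1 and 55.4 TPM in the explants (log2 difference to livers -1.99, SE 0.85, adjusted p = 0.159), and its sign turned with TPM before subtraction (0.65).

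**Figure D4:**
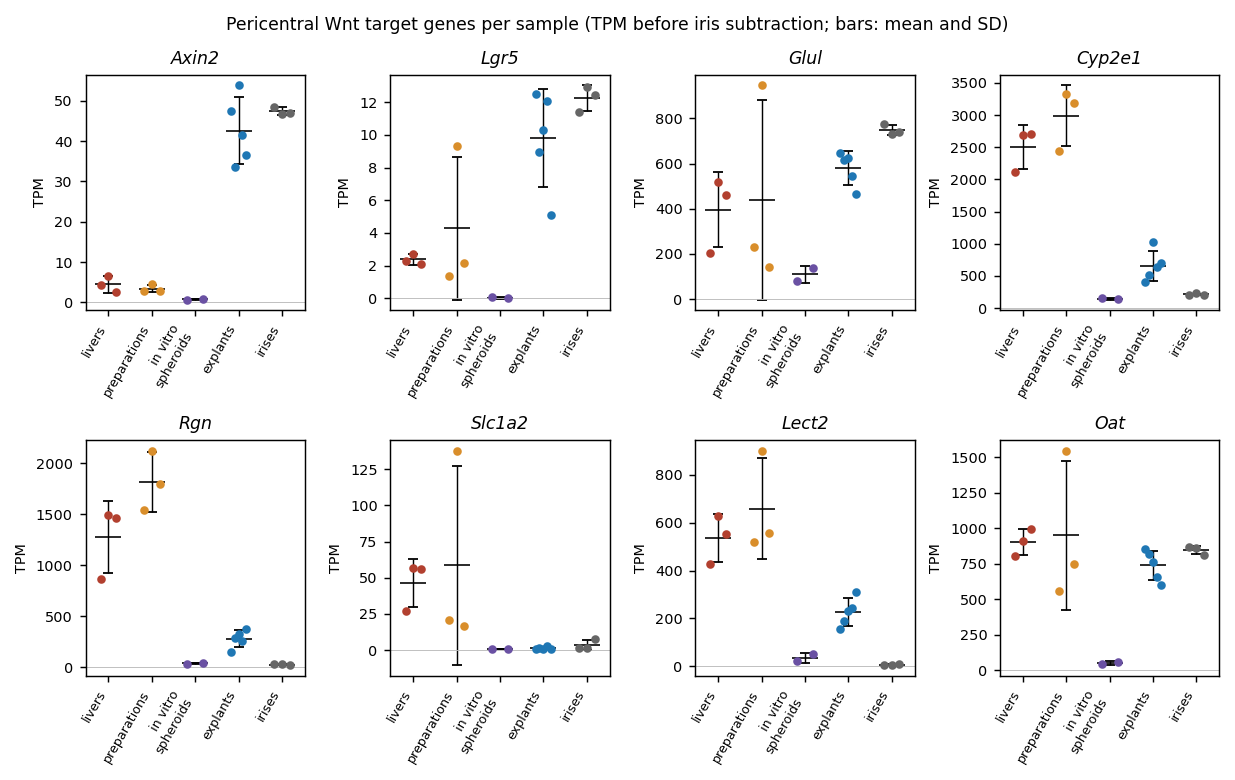
Each panel plots the TPM of a pericentral Wnt target gene (vertical axis, linear, before iris subtraction) per sample of the 5 groups, with the mean and bars of 1 SD. Both spheroid samples lie below every liver and preparation for all 8 genes (*Cyp2e1* at 152 and 137 TPM), and the irises lie above the livers for *Axin2*, *Lgr5* and *Glul*.

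The order of the 5 groups before subtraction differed from gene to gene. *Stab2*, *Clec4g*, *Oit3* and *Gpr182* all fell in mean TPM from livers over preparations, spheroids and explants to irises. Livers and preparations overlapped for *Stab2* and *Clec4g*, preparations and spheroids for *Oit3* and *Gpr182*, and explants and irises for *Clec4g*, *Oit3* and *Gpr182*. *Dnase1l3* had explants ahead of spheroids, which overlapped, and *Lyve1* had spheroids in the second place, where they overlapped livers. *Rspo3* separated the livers from all other groups, and the other 4 groups overlapped their neighbours in the order. *Fcgr2b* was the least ordered, with spheroids below irises without overlap and every other pair of neighbours overlapping. *Wnt2* was highest in explants, then irises, livers and preparations, each overlapping the next, and lowest in spheroids, which overlapped no other group. *Wnt9b* was highest in livers, and all neighbours in its order overlapped.

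The genes most like *Stab2* in TPM over the 16 samples, out of 19450 genes with a mean of at least 1 TPM, were *Akr7a5* (Pearson r = 0.994), *Egfr* (0.989), *Ttc39c* (0.987), *Mtarc2* (0.987) and *C2cd2* (0.984). Among the other 8 members that could be ranked, the closest to *Stab2* was *Clec4g* (0.946), at rank 202, and the farthest was *Wnt2* (-0.43). The genes most like *Rspo3* were *Iglj3* (0.916), *Ighv1-64* (0.901), *Iglc1* (0.894), *Ighv1-81* (0.890) and *Retnlg* (0.879). The first 4 are immunoglobulin genes and *Retnlg* is a neutrophil gene, and all 5 were at a mean of 0.819 TPM or less in each group other than livers. *Gpr182* was the member nearest to *Rspo3* (0.691). The 16 samples share their groups, and these values describe a common order of groups.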

How the data were processed

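RNA was isolated with the RNeasy kit and sequenced with Smart-seq3 as 3 technical libraries per sample, 48 libraries of 16 samples. The authors aligned reads to mm10 with TopHat2, removed duplicate reads and deposited raw counts per gene from featureCounts 1.4.6-p5, counted over exons without strand and with reads shared between overlapping genes. The counts summed over the 3 libraries equal the deposited collapsed counts in 100% of cells, and 92 ERCC controls (418 counts in all) were left out. The authors deposited TPM before correction, and a table of 20702 genes in which the share F of the mean iris TPM is subtracted from an explant and the rest divided by 1 - F. For explant 4 that column does not follow this formula (16.5% of genes equal it), so values after iris subtraction were recomputed from TPM with the solved F, with negative values set to 0.

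Symbols came from the corrected table, and *Wnt9b*, not listed there, from the reference table. Groups follow the sample titles. Counts were tested with edgeR 4.0.16 in R 4.3.3 (filterByExpr, TMM, quasi-likelihood F-test, the 2 groups compared), and values after iris subtraction with limma 3.58.1 (trend) on log2(TPM + 1) for genes with a mean of at least 0.5 TPM before subtraction, a scale that understates changes of low genes. All tests were two-sided. P-values were adjusted over all genes tested by the Benjamini-Hochberg method, and calls needed an adjusted p under 0.05 with a log2 difference beyond 1 in either direction. Comparisons of groups at 0 use a floor of 3 counts per sample, and intervals cover counting error only. A positive log2 difference means higher in the group named first.

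Named were the 10 genes, up to 4 called genes of each other list with the largest difference, and *Pecam1*, *Cdh5*, *Adgre1*, *Clec4f*, *Alb*, *Lgr5*, *Axin2* and *Glul*; other genes were named after their values were seen. The lists were other sinusoidal, general vascular and lymphatic endothelium, Kupffer cells, macrophages, stellate cells, hepatocytes, pericentral Wnt targets, Wnt receptors, other Wnt and R-spondin ligands, and Wnt antagonists with ligand release. *Lgr5*, *Rnf43* and *Znrf3* stand among the targets. Members and lists were chosen with earlier results of these data known. Alternatives were DESeq2 1.42.0, limma-voom, RLE and library size scaling, other filters, pseudocounts and iris shares, a fit of all 5 groups, and each sample left out. The fits were tested on simulated data. Of 100 genes changed 4-fold, 86 to 100 were recovered, and 2 to 33 unchanged genes were called. The most unchanged genes were called for explants after subtraction, 23 against livers and 33 against spheroids. The part of the iris subtraction itself in these numbers was not tested.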

Additional observations from a re-analysis of the deposited data

Results flagged for a closer look

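*Wnt9b* in explant 2 stood apart from the other 4 explants by the gap to its nearest neighbour over the range. It was at 0.340 TPM before iris subtraction, on 3 counts, and at 0.961 TPM after it, while the other explants were at 0 on both scales. These were 2 of 36 sets of a gene and a scale tested in this way at a critical value of 0.71, and chance alone gives about 1 in 20.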

How the results depend on the processing

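The 8 calls in livers over irises were 8 with each sample left out and under the other settings, except 9 with no filter on low counts. Of the other counts of called members, that of explants over irises (2) became 0 with limma-voom, 1 with RLE size factors, 1 in a single fit of all groups and 1 with the replicate block, and ran from 0 to 2 with samples left out. Preparations under livers (2) became 3 with DESeq2 and with no filter, 0 with limma-voom and 0 to 1 with samples left out. Spheroids over preparations (1) became 0 in the single fit, 0 with the block and 0 to 1 with samples left out, and those under preparations (4) ran from 2 to 5. For explants after subtraction against livers, the 1 gene higher became 0 with the values as deposited, 0 with the block and 0 to 1 with samples left out, and the 6 lower became 0 with the block and 1 to 6. Against spheroids, TPM before correction gave 2 higher and 4 lower in place of 1 and 1, the block left 0 higher, and the count lower became 0 with a pseudocount of 0.1, with no filter, with a mean of at least 5 TPM, with the values as deposited, with the block and in some fits with a sample left out (0 to 1).

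Signs turned for genes near no difference and, with TPM before correction, also for some with larger differences. Among the latter were *Glul* against livers and *Lrat* against spheroids, which was called lower in the main fit. In livers against irises, *Wnt2* was -0.36 with library size alone and ran from -0.34 to 0.70 with samples left out, and *Glul* was 0.01 with DESeq2 and with RLE (0.0117 and 0.0113) and ran from -0.26 to 0.35. In preparations against livers, *Glul* was -0.0862 with limma-voom and -0.0603 with the block and ran from -0.96 to 0.69, *Wnt2* from -0.98 to 0.16, *Lgr5* from -0.27 to 1.41 and *Axin2* from -0.54 to 0.16. In explants after subtraction against livers, *Fcgr2b* was -0.44 as deposited and -0.38 before correction and ran from -0.0841 to 0.50, *Lgr5* was -0.10 with a pseudocount of 0.1 and ran from -0.0708 to 0.90, and before correction *Cdh5* was -0.18, *Alb* -0.65 and *Glul* 0.65. Against spheroids, *Stab2* was -0.92 before correction and -0.0903 with the block and ran from -0.16 to 0.19, *Glul* was 2.43 before correction and 1.25 with the block and ran from -0.68 to 0.32, and before correction *Cdh5* was -0.0213, *Alb* -0.89 and *Lrat* 0.57. In all, 2919 of the values of single genes kept direction and side of the threshold, 431 lost a call, 36 gained one and 34 turned sign. The causes were not tested.

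Over all genes, limma-voom called 541 higher in explants than irises in place of 1032 and 9 higher and 11 lower in preparations than livers in place of 50 and 283, where DESeq2 called 117 and 530, no filter 191 and 1014 and the single fit 217 and 923. Before correction 8556 were higher and 1653 lower in explants than livers in place of 2467 and 694, and 7570 and 1225 than spheroids in place of 944 and 307. As deposited these were 1190 and 323, and 432 and 110. The replicate block called 0 genes of either comparison with limma (2727 higher and 1157 lower at an unadjusted p under 0.05 against livers, 2978 and 1191 against spheroids). With samples left out, the genes called higher ran from 554 to 1199 in explants against irises, from 4 to 110 in preparations against livers (4 to 338 lower, with 4 without preparation 3, 7 without preparation 2 and 15 without liver 2), from 910 to 3251 in explants after subtraction against livers and from 265 to 1137 against spheroids. With library size alone, 1973 were higher in livers than irises in place of 3422, 1531 in spheroids than preparations in place of 996, and 86 were lower in explants than irises in place of 53 (22 with the block). Same-numbered samples deviated together only weakly (correlations of -0.103 to 0.0984), so the numbers were not taken as pairs. Depth limits *Wnt9b*, *Rspo3* outside the livers, and *Clec4g* and *Oit3* in explants and irises, whose levels rest on few counts. Counts were also few for *Wnt2* (4 to 21) and *Lyve1* (13 to 29) in preparations. The same holds for *Dnase1l3* in spheroids (26 and 7) and *Gpr182* in explants (9 to 24).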
